A study of Triticum aestivum with 12 samples.

Results

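Rht1 (Reduced height 1) encodes the DELLA protein of wheat, and the hexaploid genome carries a copy in each subgenome. The 3 homoeologs were chosen by identifier, with earlier results of these data known: TraesCS4A01G271000 (Rht-A1, chromosome 4A), TraesCS4B01G043100 (Rht-B1, chromosome 4B) and TraesCS4D01G040400 (Rht-D1, chromosome 4D). They are 3 of the 128497 gene models in the count table, and all 3 were among the 69693 models that passed the filter on low counts. The chromosomes are those written in the identifiers, and no coordinates are given, since the genome build is not given in the sources used here.

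RNA was sequenced from crowns of the cultivar Jing411, in 4 groups of 3 biological replicates. NTG (unacclimated) plants spent 28 days at 20 °C, and LTA (cold acclimated) plants spent as long at 4 °C. NTGF plants had the 20 °C treatment and LTAF plants the 4 °C treatment, each followed by -5 °C for 24 hours. The tissue field of the labels names the seedling stage ("SEEDING") while the extraction protocol names the crown, and crown markers were not analysed here because the identifiers come without gene names. Which alleles Jing411 carries at Rht-B1 and Rht-D1 is not stated in the labels.

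DELLA proteins are nuclear repressors of gibberellin responses and restrain stem and leaf elongation. Gibberellin bound to its receptor GID1 brings DELLA proteins to degradation, so much of their control acts on the protein, which read counts do not measure. The semi-dwarfing alleles of Rht-B1 and Rht-D1 used in wheat breeding make DELLA proteins that resist gibberellin. In Arabidopsis, cold is known to raise DELLA protein through the CBF factors, which increase gibberellin breakdown.

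Libraries held 17871036 to 21491305 counted reads. The homoeologs were deeply covered, with 930 to 5379 reads per homoeolog and library. Levels below are CPM, which are counts relative to library size after scaling by TMM (trimmed mean of M-values) factors of 0.845 to 1.23. The factors were 1.18 to 1.23 in the NTG libraries and 0.845 to 0.998 in those of the other groups. Near-identical homoeologs can share reads, and how the authors counted such reads is not given in the sources used here. Levels are compared between groups within a homoeolog and never between homoeologs, because CPM is not corrected for gene length.

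All 3 homoeologs had lower transcript levels in acclimated than in unacclimated crowns, frozen or not, and the lower level of Rht-B1 before freezing missed the test. Rht-B1 was also called higher in frozen unacclimated crowns with TMM scaling, but missed the test with scaling by library totals (edgeR adjusted p = 0.0549). A test of any difference among the 4 groups called 3 of 3 homoeologs (edgeR adjusted p = 9e-05 for Rht-A1, 0.000153 for Rht-B1 and 0.00109 for Rht-D1), where 61.0% of all tested models were called. A lower level in bulk tissue cannot tell fewer cells that express a gene from less RNA per cell.

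**Figure D1:**
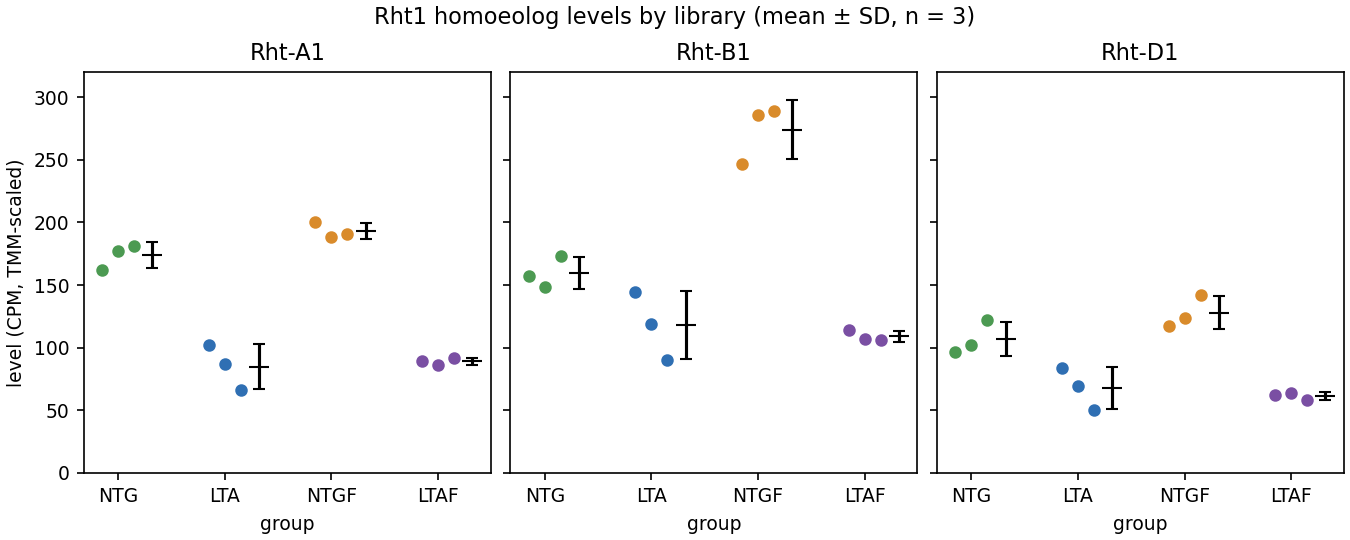
Level of each Rht1 homoeolog in every library, in CPM on a linear axis from 0, by group (points: libraries in replicate order; black bars: mean ± SD, n = 3). The acclimated groups LTA and LTAF lie below the unacclimated groups NTG and NTGF in each panel, and the NTGF libraries of Rht-B1 lie highest, at 247 to 289 CPM.

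Rht-A1 had 162, 177 and 182 CPM in NTG replicates 1 to 3 and 102, 87.0 and 66.0 CPM in those of LTA. After freezing it had 200.3, 188 and 191 CPM in NTGF and 89.3, 85.9 and 92.0 CPM in LTAF. Every acclimated library therefore lay below every unacclimated one, and the mean levels were ordered NTGF (193 ± 6.23), NTG (174 ± 10.3), LTAF (89.1 ± 3.06) and LTA (84.9 ± 18.0; SD, n = 3 each). With TMM scaling, NTGF and NTG did not overlap but did not pass the test against each other, and LTAF lay inside the range of LTA.

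Rht-B1 had 158, 148 and 173 CPM in NTG and 145, 119 and 90.0 CPM in LTA. It had 247, 286 and 289 CPM in NTGF and 114, 107 and 106 CPM in LTAF. The NTGF libraries stood above all others, and the highest LTA library lay just under the lowest NTG library. The order of the mean levels was NTGF (274 ± 23.5), NTG (159.7 ± 12.5), LTA (118 ± 27.3) and LTAF (109 ± 4.49; SD, n = 3 each), with LTAF inside the range of LTA.

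Rht-D1 had 96.8, 102 and 122 CPM in NTG and 83.9, 69.5 and 49.9 CPM in LTA. It had 117, 124 and 142 CPM in NTGF and 62.5, 63.7 and 57.8 CPM in LTAF. NTGF and NTG overlapped, as did LTA and LTAF, while both acclimated groups lay below both unacclimated ones. The order of the mean levels was NTGF (128 ± 13.1), NTG (107 ± 13.3), LTA (67.7 ± 17.1) and LTAF (61.3 ± 3.10; SD, n = 3 each).

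The LTA libraries spread more widely than those of the other groups for each homoeolog. LTA replicate 1 was the highest and LTA replicate 3 the lowest of its group for all 3, and the coefficients of variation in LTA were 21.2% (Rht-A1), 23.1% (Rht-B1) and 25.2% (Rht-D1). Among the 3716 tested models that averaged 50 CPM or more in LTA, the median coefficient of variation was 7.62%, and 8.80% of them exceeded 20%. In LTAF the homoeologs varied by 3.43% to 5.05%, where the corresponding median over models was 16.3%. The minimum of 50 CPM was set after the levels were seen.

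LTA against NTG asks what acclimation changed in unfrozen crowns. Acclimated plants spent the whole treatment in the cold, and unacclimated plants spent as long in the warm. The comparison therefore cannot tell acclimation from growth temperature itself, and growth stage at sampling was not tested. Rht-A1 fell 2.05-fold (log2 fold change -1.03 ± 0.16, SE; edgeR adjusted p = 0.000384). Rht-D1 fell 1.58-fold (-0.66 ± 0.18; edgeR adjusted p = 0.015). Rht-B1 had a log2 fold change of -0.44 ± 0.17, with a 95% interval of -0.81 to -0.07, and did not pass the test (edgeR adjusted p = 0.0609). Thus 2 of 3 homoeologs were called lower, where 18.1% of all tested models were, and 3 of 3 did not overlap between the groups in this direction, as for 31.2% of tested models. The median over the homoeologs was -0.66 against -0.06 over all tested models.

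The call of Rht-D1 was lost without NTG replicate 3 (edgeR adjusted p = 0.0632) and without LTA replicate 3 (edgeR adjusted p = 0.0647). Rht-B1 was called lower with DESeq2 (adjusted p = 0.0367), with limma-voom (adjusted p = 0.0432), in a fit of NTG and LTA alone (edgeR adjusted p = 0.0488) and with scaling by library totals (edgeR adjusted p = 0.00286). Without LTA replicate 1 it was also called (-0.60; edgeR adjusted p = 0.026), and without LTA replicate 3 its log2 fold change was -0.27 (edgeR adjusted p = 0.244).

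NTGF against NTG asks what freezing changed without acclimation, and it shares the NTG libraries with the comparison above. Rht-B1 rose 1.72-fold (log2 fold change 0.78 ± 0.17, SE; edgeR adjusted p = 0.0069). The log2 fold change was 0.15 ± 0.16 for Rht-A1 (95% interval -0.19 to 0.49; edgeR adjusted p = 0.51). It was 0.26 ± 0.18 for Rht-D1 (95% interval -0.14 to 0.66; edgeR adjusted p = 0.332). This 1 call among 3 homoeologs stands beside 14.2% of tested models called higher. With TMM scaling, 2 of 3 homoeologs (Rht-A1 and Rht-B1) did not overlap between the groups in this direction, as for 21.9% of tested models.

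Scaling bears on this comparison. When libraries were scaled by their totals, the median over tested models moved from 0.04 to -0.27. The log2 fold change was then 0.47 for Rht-B1 (edgeR adjusted p = 0.0549), -0.16 for Rht-A1 and -0.05 for Rht-D1. The separation of the groups for Rht-A1 also reversed. Scaled by library totals, Rht-A1 had 176.6 to 195.1 CPM in NTGF and 196.4 to 217.2 CPM in NTG. Relative to the median of all tested models, Rht-B1 lay 0.74 higher, a distance that a change of scaling leaves nearly as it is by construction.

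LTAF against LTA asks what freezing changed in acclimated crowns. No homoeolog was called by edgeR, DESeq2 or limma-voom, and the unadjusted edgeR p was 0.668 for Rht-A1, 0.521 for Rht-B1 and 0.453 for Rht-D1. Their log2 fold changes were 0.07 (95% interval -0.27 to 0.41), -0.11 (-0.48 to 0.26) and -0.14 (-0.54 to 0.26). In this comparison 5.91% of all tested models were called in either direction. The sign of Rht-A1 turned with library totals and without LTA replicate 3, and that of Rht-B1 and Rht-D1 without LTA replicate 1.

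LTAF against NTGF asks how frozen crowns differed by acclimation, and it shares its libraries with the 2 freezing comparisons. The limit on acclimation given for LTA against NTG holds here too. All 3 homoeologs were lower in LTAF. Rht-B1 fell 2.51-fold (log2 fold change -1.33 ± 0.17, SE; edgeR adjusted p = 0.000188). Rht-A1 fell 2.17-fold (-1.12 ± 0.16; edgeR adjusted p = 0.00031) and Rht-D1 fell 2.08-fold (-1.06 ± 0.19; edgeR adjusted p = 0.00114). The 3 calls of 3 stand beside 19.6% of tested models called lower, and 3 of 3 did not overlap in this direction, as for 21.6% of tested models. The median over the homoeologs was -1.12 against -0.03 over all tested models. The 3 calls held under each of the 7 other settings and without any of the 6 libraries compared.

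**Figure D2:**
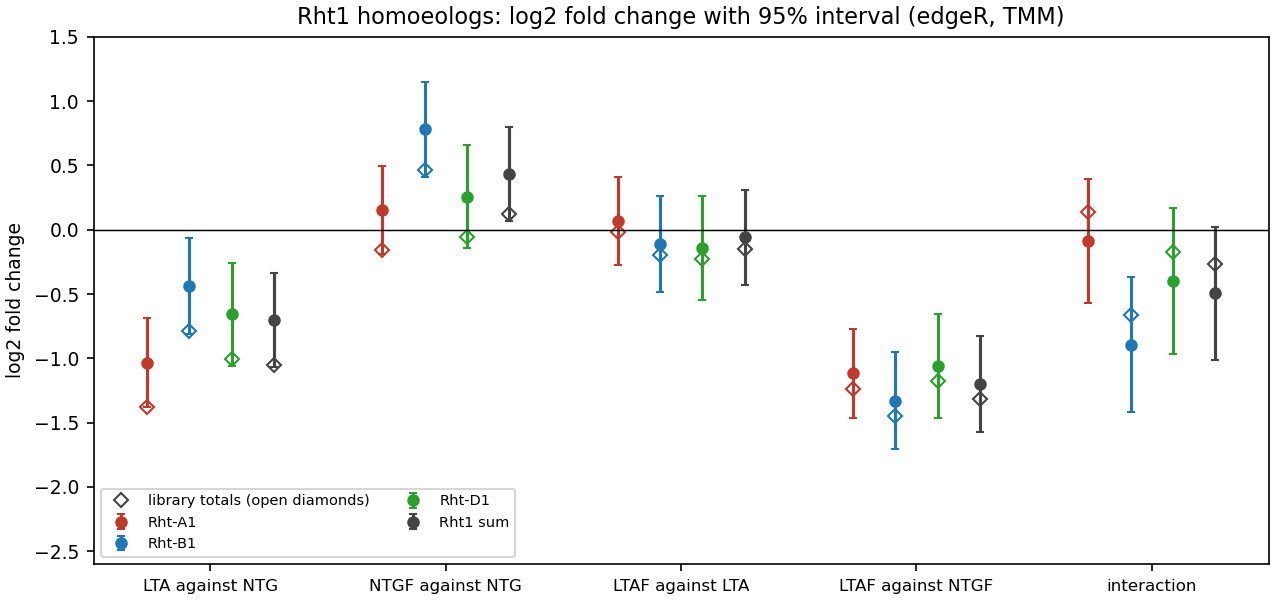
Log2 fold change of each homoeolog and of their summed counts in the 5 comparisons (filled circles: edgeR with TMM; bars: 95% intervals; open diamonds: the same fit scaled by library totals). The interval of Rht-B1 lies above 0 in NTGF against NTG, and the intervals of all 3 homoeologs lie below 0 in LTAF against NTGF.

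The interaction is the freezing response of acclimated crowns minus that of unacclimated crowns. For Rht-B1 it was -0.89 ± 0.24 on the log2 scale (SE; edgeR adjusted p = 0.0371). It was -0.09 ± 0.22 for Rht-A1 (95% interval -0.57 to 0.40; edgeR adjusted p = 0.84). It was -0.40 ± 0.26 for Rht-D1 (95% interval -0.97 to 0.17; edgeR adjusted p = 0.341). This 1 negative call among 3 stands beside 5.91% of tested models called negative.

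The call of Rht-B1 held with DESeq2 (-0.89; adjusted p = 0.00553) and limma-voom (-0.87; adjusted p = 0.0397). It was lost with library totals (-0.67; edgeR adjusted p = 0.0864), with the replicate number as a block (-0.89; edgeR adjusted p = 0.0826), and without NTG replicate 1, 2 or 3, LTA replicate 1 or 2, NTGF replicate 2, or LTAF replicate 1 or 3. Over the fits that left out a library, the difference ran from -1.06 to -0.72 and the edgeR adjusted p from 0.0305 to 0.0979.

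**Figure D3:**
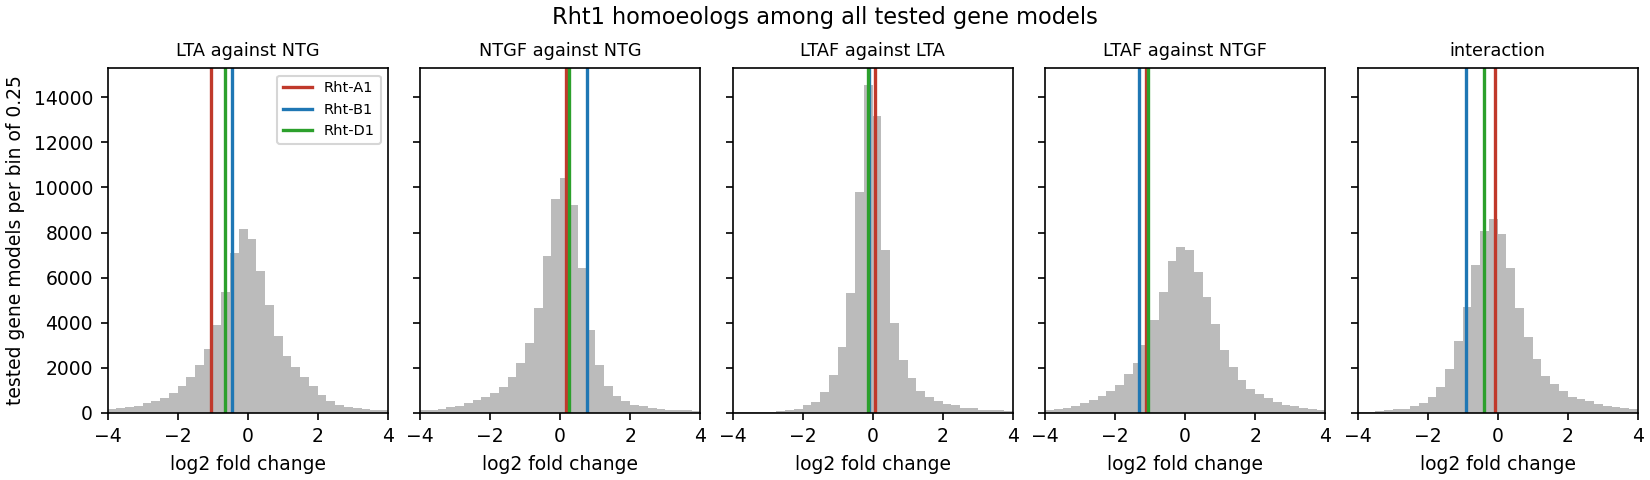
Log2 fold changes of all 69693 tested gene models (grey bars, models per bin of 0.25; the axis is limited to 4 in either direction) with the 3 homoeologs as vertical lines, for the 5 comparisons. In LTAF against NTGF the homoeologs lie at the 12.1 to 16.3 percentiles of all tested models, and in LTAF against LTA at the 40.4 to 58.7 percentiles.

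Reads that move between near-identical copies cancel when the 3 rows are summed. The summed count gave 440.3 ± 32.1 CPM in NTG, 270.5 ± 62.3 in LTA, 595 ± 29.3 in NTGF and 259.5 ± 5.74 in LTAF (SD, n = 3 each). Its log2 fold change was -0.70 (95% interval -1.07 to -0.34) in LTA against NTG and -1.20 (-1.57 to -0.83) in LTAF against NTGF. It was 0.44 (0.07 to 0.80) in NTGF against NTG and -0.06 (-0.43 to 0.31) in LTAF against LTA. These intervals are not adjusted for the number of models, the 0.44 is not a called rise, and scaling by library totals brought it to 0.12. The lower level in acclimated crowns was also present in the sum, which is made of the same counts and is not separate support.

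The balance of the homoeologs also differed between the groups for Rht-A1 and Rht-B1, in a test added after the shares were seen. The planned tests by factor did not pass their planned adjustment. This balance was measured as the share of each homoeolog in the summed Rht1 count of a library, which no scaling between libraries changes. The shares do depend on how reads common to near-identical homoeologs were counted, which is not given in the sources used here. The sum ran from 3922 to 11248 reads, so the 95% Wilson intervals of single shares reached at most 1.55 percentage points on either side, for counting error only. Shares are of reads and not corrected for gene length, so they are read across groups and not between homoeologs.

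Rht-B1 held 37.8%, 34.7% and 36.3% of the summed count in the NTG libraries. It held 43.8%, 43.2% and 43.7% in LTA, 43.8%, 47.8% and 46.4% in NTGF, and 42.9%, 41.7% and 41.4% in LTAF. All 9 libraries from cold or frozen plants lay above the 3 NTG libraries. Rht-A1 took the opposite course, with 38.9%, 41.5% and 38.1% in NTG against 30.8% to 32.1% in LTA, 30.7% to 35.5% in NTGF and 33.5% to 36.0% in LTAF. Rht-D1 stayed between 20.7% and 25.6% in all 12 libraries, lowest in NTGF at 21.4% ± 1.24 (SD, n = 3).

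An exact permutation test of any difference among the 4 groups, over all 369600 assignments of the libraries, gave p = 0.00013 for the share of Rht-B1 (adjusted p = 0.00117), p = 0.00383 for Rht-A1 (adjusted p = 0.0172) and p = 0.0229 for Rht-D1 (adjusted p = 0.0514). This test was added after the shares were seen, and its 3 p-values were adjusted together with the 6 planned tests, 9 in all. Shares of a sum are not independent of each other. Without NTG replicate 2 the exact test of Rht-A1 gave an adjusted p of 0.0675, and the share of Rht-D1 passed without NTG replicate 3 (exact, adjusted p = 0.0481), NTGF replicate 3 (0.0338) or LTAF replicate 2 (0.0451).

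The planned exact two-sided tests took each factor over both levels of the other, and their p-values were adjusted over these 6 tests, as planned. Of the 6, 0 passed after this adjustment, with 1 at an unadjusted p under 0.05. For acclimation, the share of Rht-B1 differed by 7.31 percentage points without freezing and by -3.98 after it. For freezing, it differed by 9.73 percentage points without acclimation and by -1.56 after it. The mean differences were 1.66 (exact p = 0.405, adjusted p = 0.405) and 4.09 percentage points (exact p = 0.1, adjusted p = 0.195). The share of Rht-D1 differed by -2.04 percentage points in frozen against unfrozen crowns (exact p = 0.015, adjusted p = 0.09; without LTAF replicate 2, -2.34 and adjusted p = 0.03), where 0.005 is the smallest p these tests allow. Adjusted over all 9 share tests, the same exact test of Rht-D1 passed (adjusted p = 0.045), so its call depends on which tests are counted.

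**Figure D4:**
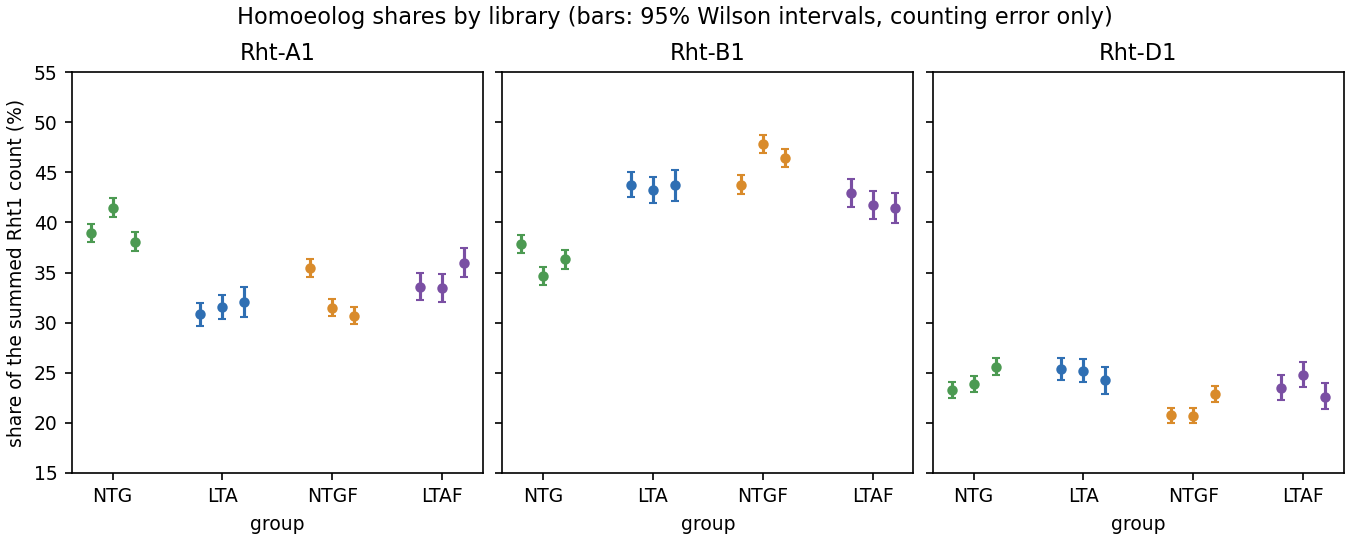
Share of each homoeolog in the summed Rht1 read count of every library, in percent on an axis from 15 to 55 (points: libraries in replicate order; bars: 95% Wilson intervals, counting error only). NTG stands apart for Rht-B1, at 34.7% to 37.8% against 41.4% to 47.8% in the other 9 libraries, and for Rht-A1, at 38.1% to 41.5% against 30.7% to 36.0%.

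The tested high-confidence models next to the homoeologs in identifier order were counted by call. Of the 10 nearest neighbours of Rht-A1, 5 on either side, 2 were called lower and 1 higher in LTA against NTG, with log2 fold changes from -1.44 to 0.58. Of the 10 of Rht-D1, 1 was called lower and 3 higher, from -0.70 to 2.38. Of the 10 of Rht-B1, 0 were called higher and 1 lower in NTGF against NTG, from -0.58 to 0.58. In LTAF against NTGF, where all 3 homoeologs were lower, 2, 2 and 3 of the 10 neighbours of Rht-A1, Rht-B1 and Rht-D1 were called higher and 1, 0 and 1 lower. Of all tested models, 20% were called higher and 18.1% lower in LTA against NTG. These shares were 14.2% and 11.7% in NTGF against NTG, and 20.2% and 19.6% in LTAF against NTGF. Counts out of 10 are too few to tell the neighbours from all tested models.

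Some neighbours were called in the direction of a homoeolog that was itself called. On 4A, TraesCS4A01G271200 (log2 fold change -0.42 ± 0.14, SE; edgeR adjusted p = 0.0276) and TraesCS4A01G271400 (-1.44 ± 0.29; edgeR adjusted p = 0.00252) were lower in LTA than in NTG, and TraesCS4A01G271400 was lower in LTAF than in NTGF (-1.17 ± 0.30; edgeR adjusted p = 0.00946). On 4D, TraesCS4D01G040000 was lower in LTA than in NTG (-0.70 ± 0.23; edgeR adjusted p = 0.0322) and in LTAF than in NTGF (-0.78 ± 0.24; edgeR adjusted p = 0.0212). On 4B, TraesCS4B01G042500 shared the negative interaction call of Rht-B1 (-1.84 ± 0.53; edgeR adjusted p = 0.0444). Where the homoeolog itself was not called, the neighbours called on its side of 0 were TraesCS4B01G042600 in LTA against NTG (-0.73), TraesCS4A01G271600 (0.66) and TraesCS4D01G039900 (1.56) in NTGF against NTG, TraesCS4B01G042500 in LTAF against LTA (-1.60) and TraesCS4D01G039900 in the interaction (-1.95). The table gives these identifiers no names, so no function is given for them.

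**Figure D5:**
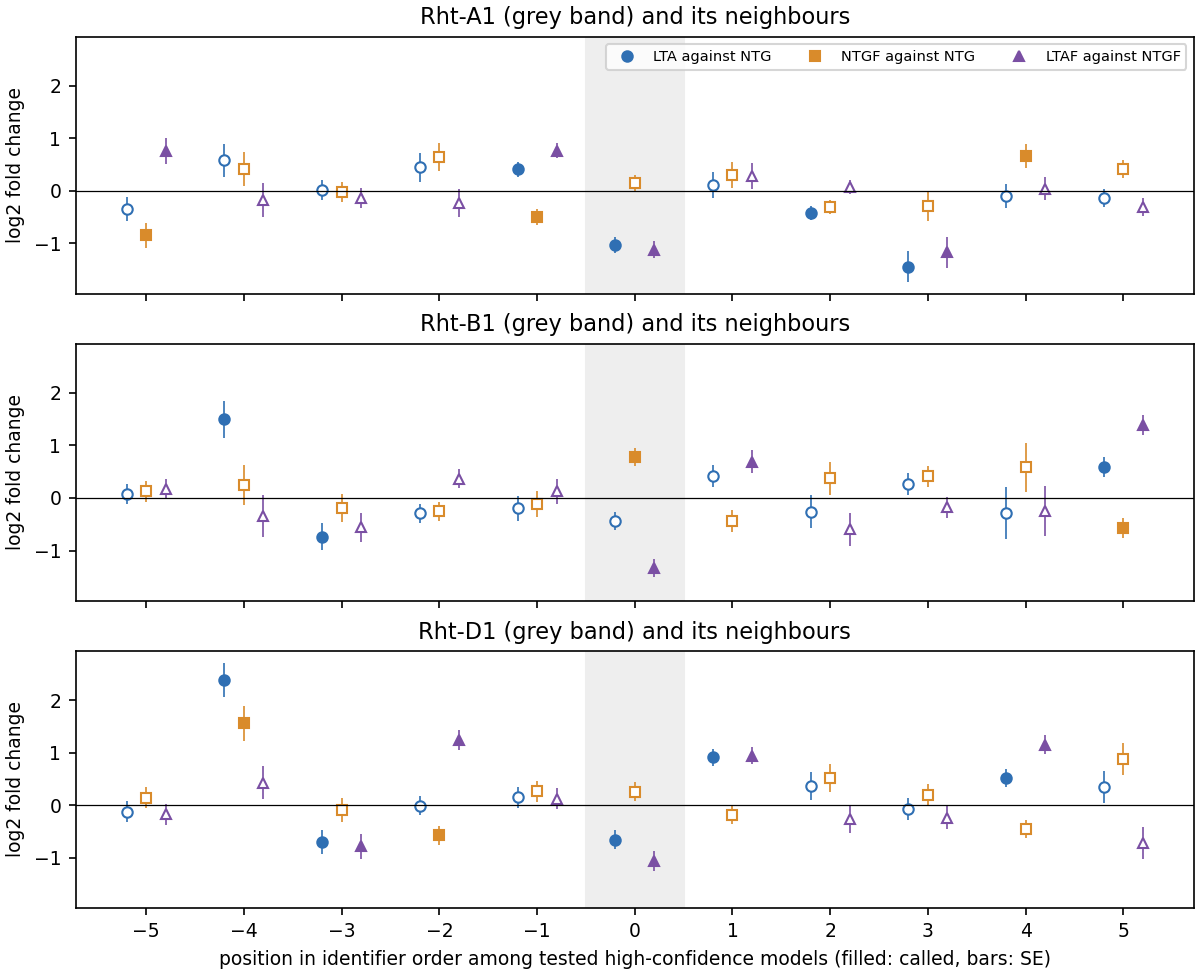
Log2 fold changes of each homoeolog (grey band, position 0) and of the 5 tested high-confidence models on either side in identifier order, for 3 comparisons (filled symbols: called at an adjusted p under 0.05; bars: SE). In each panel the 10 neighbours of a homoeolog lie on both sides of 0. None of the 10 neighbours of Rht-B1 is called higher in NTGF against NTG, where 14.2% of all tested models were.

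Across the 12 libraries, the high-confidence models with the most similar log2 CPM were others than the homoeologs. For Rht-A1 they were TraesCS5A01G015200 (Pearson r = 0.989), TraesCS3B01G042600 (0.985) and TraesCS7B01G103600 (0.983). TraesCS5A01G015200 was low, at 2.41 CPM or less in the mean of every group. TraesCS7B01G103600 had 125.5 ± 4.78 CPM in NTG, 70.8 ± 3.83 in LTA, 135 ± 0.403 in NTGF and 71.1 ± 3.47 in LTAF (SD, n = 3). For Rht-B1 they were TraesCS6D01G244100 (0.987), TraesCS6B01G385900 (0.980) and TraesCS5D01G485800 (0.980). TraesCS6B01G385900 had 80.3 ± 15.96 CPM in NTG, 44.7 ± 12.6 in LTA, 175.5 ± 12.4 in NTGF and 46.05 ± 4.09 in LTAF. For Rht-D1 they were TraesCS7B01G177200 (0.982), TraesCS7B01G038900 (0.972) and TraesCS6A01G280400 (0.971). The first 2 of these lay at 3.45 CPM or less in the mean of every group.

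Among the 57595 other high-confidence models, Rht-D1 ranked 73 by likeness to Rht-A1 (r = 0.959) and Rht-B1 ranked 1568 (r = 0.887). By likeness to Rht-B1, Rht-D1 ranked 134 (r = 0.936) and Rht-A1 ranked 752. By likeness to Rht-D1, Rht-A1 ranked 13 and Rht-B1 ranked 100. These values describe 12 libraries that fall into 4 groups, and many models share the step between unacclimated and acclimated crowns.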

How the data were processed

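The authors deposited whole-number read counts for each gene model and library, without normalization, per the file headers. Which aligner, counting program and genome build were used is not given in the sources used here. Every column was matched to its library by title, and groups came from the labels. Models were filtered with filterByExpr (minimum count 10) and scaled with TMM. All 12 libraries entered a single edgeR 4.0.16 fit (R 4.3.3) with a mean per group, using the robust quasi-likelihood F test and Benjamini-Hochberg adjustment over all 69693 models tested. Models under an adjusted p of 0.05 were called. Standard errors and 95% intervals were derived from the F statistic. Alternatives used DESeq2 1.42.0, limma-voom (limma 3.58.1), library totals, no filter, high-confidence models only, only the groups compared, a replicate block, and each library left out. The fit was also run on simulated data with the same spread for all models and no difference in composition between groups. That run therefore does not test the choice of scaling.

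Named models were the 3 homoeologs, the 3 high-confidence models most correlated with each in log2 CPM (prior count 2), and neighbours, 5 on either side, called in the homoeolog's direction. The members and lists were chosen with earlier results of these data known. Of the identifiers, 0 could be matched to a name in the RefSeq gene table, so the planned gibberellin pathway list and crown markers had no members and are not reported.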

Additional observations from a re-analysis of the deposited data

Results flagged for a closer look

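The freezing response of Rht-B1 differed between acclimated and unacclimated crowns by the test of the interaction (-0.89 on the log2 scale; edgeR adjusted p = 0.0371). Freezing went with a rise from 159.7 ± 12.5 to 274 ± 23.5 CPM without acclimation and with 118 ± 27.3 and 109 ± 4.49 CPM before and after it in acclimated crowns (SD, n = 3 each). The call was present in 4 of the 12 fits that left out a library and in 4 of the 6 other settings. The cause was not tested.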

How the results depend on the processing

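Direction is relative to the bulk of genes: with library totals the median of all tested models moved by -0.35 in LTA against NTG, by -0.31 in NTGF against NTG and by 0.23 in the interaction on the log2 scale. It moved by -0.12 in LTAF against NTGF. That scaling called 0 homoeologs in NTGF against NTG and 0 in the interaction, and turned the log2 value of Rht-A1 to -0.16 and of Rht-D1 to -0.053 in NTGF against NTG, and of Rht-A1 to -0.021 in LTAF against LTA and to 0.14 in the interaction. In NTGF against NTG the summed count gave 0.44 with DESeq2, which passed the threshold that the same value missed in edgeR, and 0.12 with library totals.

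With a library left out, 1 to 3 homoeologs were called in LTA against NTG and 0 to 1 in the interaction. In LTAF against LTA the sum ran from -0.22 to 0.11, Rht-A1 from -0.084 to 0.22, Rht-B1 from -0.27 to 0.061 and Rht-D1 from -0.32 to 0.041, and Rht-A1 ran from -0.24 to 0.062 in the interaction. The frozen minus unfrozen share of Rht-D1 ran from -2.40 to -1.70 percentage points, and the value over all libraries (-2.04) passed when adjusted over all 9 share tests, an adjustment added after the data were seen. For any difference in shares the exact adjusted p ran from 0.00117 to 0.0675 for Rht-A1 and from 0.0338 to 0.176 for Rht-D1. The causes of these changes were not tested.

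Same-numbered libraries did not clearly deviate together (correlations of -0.437 to 0.201 across models). The deviations are from means of 3 libraries, so this check cannot settle whether replicate numbers paired the libraries. With the replicate number as a block, 0 homoeologs were called in the interaction against 1, and 2, 1, 0 and 3 in the other comparisons as without it. Of 484 recomputed values, 437 kept their direction and side of the threshold or, for counts of called homoeologs, stayed within 1.5 times. These include 3 called homoeologs in place of 2 in LTA against NTG with library totals, DESeq2, limma-voom, only the groups compared, or without LTA replicate 1. They also include uncalled results that stayed uncalled, as in LTAF against LTA. All values were recomputed from the same 12 libraries, so the total does not measure how well a given call held. The interaction call of Rht-B1 was lost in 10 of 18 alternatives.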
